A study of Homo sapiens with 12 samples.

Results

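The response of MOLM14 cells to all-trans retinoic acid (ATRA) was described while a short hairpin RNA against RIP140 was switched on. MOLM14 is a human acute myeloid leukemia line, and RIP140 is the nuclear receptor coregulator encoded by NRIP1. The members are the 6 libraries given doxycycline, chosen by their labels from 12 in all: 3 with doxycycline alone (DOX, 50 ng/mL) and 3 with the same doxycycline and ATRA (combined, 1 µM ATRA for 48 h). All 12 libraries carry the inducible hairpin, labelled shRIP140. The other 6, untreated cells and ATRA without doxycycline, serve here to show where the response differed with the hairpin off. The labels used here do not say whether the line is 1 clone or how long doxycycline was given before ATRA. They name no group with doxycycline and no hairpin, so the hairpin and the drug that induces it cannot be told apart when responses with and without DOX are compared. Values are gene counts from bulk RNA sequencing, given as CPM, the counts of a gene scaled to the total of its library after TMM adjustment, with means ± SD over n = 3 libraries. Log2 changes are given ± a standard error taken as the log2 change divided by the square root of F in edgeR's quasi-likelihood test. It understates the uncertainty of large changes that start from few counts. A gene was called at a Benjamini-Hochberg adjusted p under 0.05 over all genes tested, and "rose" and "fell" are used only of called genes.

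ATRA binds retinoic acid receptors (RARA, RARB and RARG), which pair with retinoid X receptors on DNA elements made of direct repeats. Without a ligand the pair holds corepressors. With ATRA it takes up coactivators such as NCOA3, and target genes are transcribed, among them genes that bind or degrade retinoids. RIP140 is unusual in that it joins receptors that hold a ligand and yet represses them. In myeloid leukemia cells retinoids are known for inducing maturation, surface molecules such as CD38 and CD11b, and interferon-related genes.

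NRIP1, the target of the hairpin, held 19.2, 15.0 and 15.7 CPM in the DOX libraries and 15.9, 20.9 and 19.95 CPM in the combined libraries. All 6 values were below those of the libraries without doxycycline, which held 59.7, 58.9 and 53.3 CPM when untreated and 38.4, 41.1 and 51.9 CPM with ATRA. With DOX, ATRA left NRIP1 without a call (log2 change 0.16 ± 0.14, adjusted p = 0.481 by edgeR's quasi-likelihood test). Without doxycycline NRIP1 fell with ATRA (−0.39 ± 0.12, adjusted p = 0.0185 by the same test). The difference between both changes, 0.55 ± 0.19, was not called (adjusted p = 0.276 by the same test). Of 18 genes listed for a monocytic myeloid leukemia line, 17 passed the filter on low counts. Their summed level was 1591 to 1635 CPM with DOX and 1528 to 1761 CPM in the combined group, and 6 of them rose and 3 fell (1 after thinning to the smallest library or with only these 6 libraries in the fit). Of 19 lymphoid markers 7 had no count in the 6 libraries, including CD3E, CD2 and CD8A. Of 17 erythroid and megakaryocyte markers 9 had none, HBB and PF4 among them, and of 15 stromal and epithelial markers 6 had none, EPCAM and CDH1 among them. The filter was passed by 3 erythroid and megakaryocyte and 2 stromal and epithelial markers. Summed levels of the 3 were 17.6 to 26.1 CPM with DOX and 20.02 to 24.6 CPM in the combined group, without a call. Those of the 2 were 59.6 to 71.8 CPM and 39.7 to 54.8 CPM, and 1 of them fell. Among the 5 lymphoid markers that passed the filter was PAX5, a B-cell factor, with 55.7 ± 8.98 CPM with DOX and 54.3 ± 2.95 CPM in the combined group. Of the 5 lymphoid markers 2 fell, TRAC and NKG7, and none rose, with a median log2 change of −0.32.

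Library totals ran from 2685984 counts in DOX replicate 3 to 19358619 in DOX replicate 2. Pearson correlations of log2 CPM over the genes tested were 0.986 to 0.989 among the combined libraries. DOX replicate 3 correlated at 0.973 and 0.975 with DOX replicates 1 and 2, which correlated at 0.985 with each other. Combined replicate 1 differed from the other combined libraries in a small set of genes. Among 9738 genes with a mean of at least 10 CPM in the combined group, 15 were at least 2-fold lower there than in both others and 9 were at least 2-fold higher. The same counts were 2 and 2 for combined replicate 2, and 11 and 3 for DOX replicate 2 among 9680 genes. The genes low in combined replicate 1 included the immediate-early genes DUSP1, FOS, FOSB, JUN and EGR1. FOS, DUSP1, FOSB and JUN were named after their values were seen. FOS, a subunit of the AP-1 factor, had 9.79, 17.7 and 11.1 CPM with DOX and 9.68, 105 and 109 CPM in the combined libraries. DUSP1, a phosphatase that acts on MAP kinases, had 2.15, 5.00 and 4.99 CPM against 2.47, 44.2 and 47.6 CPM. EGR1, a zinc finger factor of monocyte maturation, had 7.24, 8.51 and 3.07 CPM against 9.80, 63.6 and 60.9 CPM. In each of the 3 genes combined replicates 2 and 3 were far above the DOX libraries and replicate 1 was near them. The log2 change of EGR1 was 2.59 ± 0.45 with all libraries and 3.10 ± 0.18 without combined replicate 1.

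**Figure D1:**
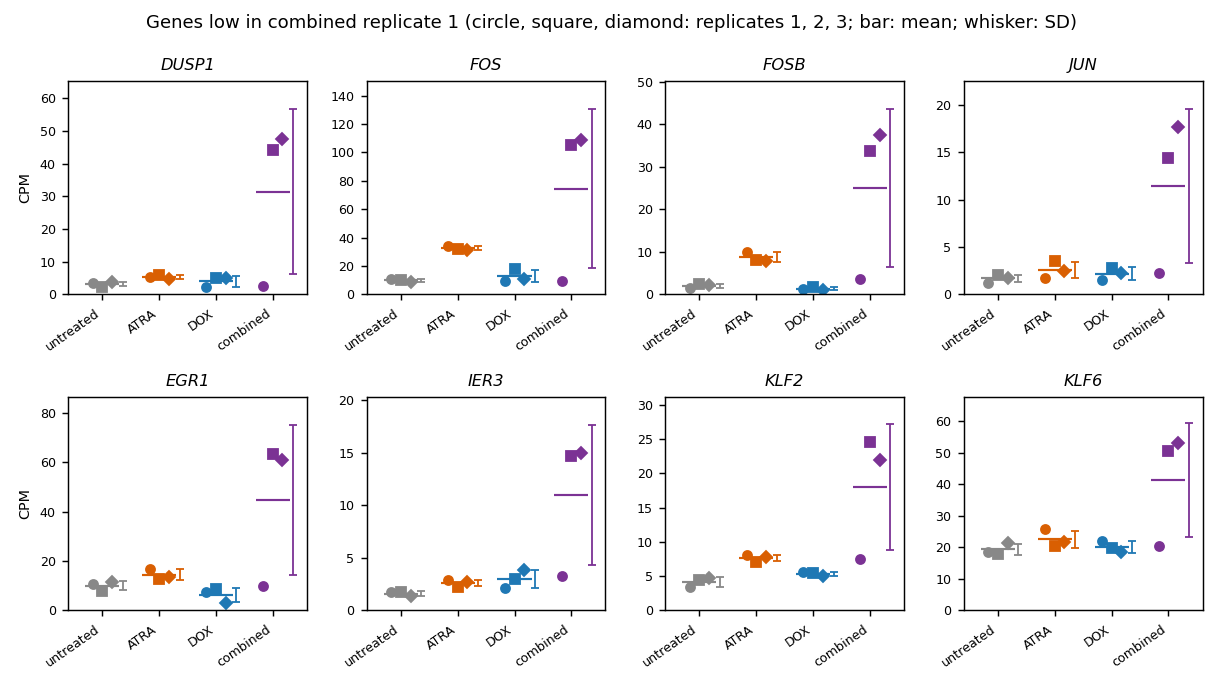
Levels in CPM (linear axis from 0) of 8 genes in the 4 groups of 3 libraries. Circles, squares and diamonds are replicates 1, 2 and 3, bars are means and whiskers SD. In the combined group the circle sits near the DOX libraries for each gene, as in FOS with 9.68 CPM against 105 and 109 CPM in the other replicates.

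Across 16104 genes tested, combined against DOX called 3054, which is 19.0%. Of these 1727 rose (10.7%) and 1327 fell (8.24%). By at least 1 on the log2 scale, 576 rose (3.58%) and 254 fell (1.58%). The 3 and 3 libraries did not overlap, upward, in 2692 genes (16.7%) and downward in 2169 (13.5%). Without doxycycline ATRA raised 15.7% and lowered 13.2% of the genes tested. The count of genes called with DOX was 1847 when all libraries were thinned to the depth of the smallest. The gene lists below are read against these shares, and against a median log2 change of −0.01 over all genes tested. List members that did not pass the filter on low counts are not in the counts of tested members. A member passes where its counts are high enough in 3 libraries, so a gene near 0 with DOX can pass through the combined group alone. The list counts are therefore descriptions. Most list members named below were chosen by small adjusted p in this same comparison, so a lack of overlap in them is largely fixed by the choice.

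Genes tied to retinoids were among the largest increases. On the retinoid response list 21 of 29 genes were tested, 14 rose and 1 fell, with a median log2 change of 1.24. TGM2, a transglutaminase long known as a retinoid target, had 0.239, 0.0549 and 0 CPM with DOX and 279, 247 and 313 CPM in the combined libraries. DHRS3, which reduces retinaldehyde to retinol, had 4.30, 4.56 and 2.304 CPM against 232, 294 and 333 CPM. HIC1, a transcriptional repressor, had 12.7, 14.5 and 10.4 CPM against 151, 182 and 198 CPM. In each of these genes the groups lay far apart with no overlap. For TGM2 and DHRS3 the rule for the largest increases required that there be none. HIC1 was named by adjusted p in this comparison, which favours such separation. The log2 changes were 11.07 ± 0.30 for TGM2, 6.08 ± 0.17 for DHRS3 and 3.74 ± 0.13 for HIC1, with adjusted p = 5.16e-15 for the last by edgeR's quasi-likelihood test. That of TGM2 was 10.40 without DOX replicate 2, 12.24 without DOX replicate 1 and 12.56 after thinning to the smallest library. The DOX group held 4 TGM2 counts, and these refits spread wider than the ± value. CYP26B1, which degrades retinoic acid, rose from 5.40 ± 0.735 to 27.4 ± 0.128 CPM, a log2 change of 2.39 ± 0.14. CD38, an NAD-consuming surface enzyme, had 23.4, 18.7 and 18.8 CPM with DOX and 165, 189.5 and 186 CPM in the combined group, a log2 change of 3.13 ± 0.11. IRF1, an interferon regulatory factor, rose by 1.62 ± 0.08. The member that fell was the receptor gene RARG (−0.65 ± 0.19, adjusted p = 0.0187 by edgeR's quasi-likelihood test), a call lost without DOX replicate 3 or combined replicate 1, and its change was −1.13 after thinning to the smallest library.

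The receptors and coregulators themselves split. RXRA, the retinoid X receptor that partners the RARs, fell from 254, 238 and 235 CPM to 129.6, 105 and 116 CPM (−1.05 ± 0.08). NCOA3, a coactivator, had 44.8, 28.4 and 33.4 CPM with DOX and 79.1, 82.0 and 76.4 CPM in the combined group, and rose by 1.15 ± 0.13. RXRA and NCOA3 thus moved in opposite directions, neither with overlap between the groups. Both were named by adjusted p in this comparison, which favours such separation. PPARD, a fatty acid receptor, rose by 0.49 ± 0.11, and THRA, a thyroid hormone receptor, fell (−0.41 ± 0.09). Of 29 tested receptors and coregulators (34 listed) 8 rose and 3 fell. The number that rose was 13 without DOX replicate 1, 5 with only these 6 libraries in the fit or without combined replicate 3 and 4 without DOX replicate 2. Among genes of retinoid uptake, binding and turnover 2 rose and 3 fell of 12 tested (23 listed). Those that rose were DHRS3 and CYP26B1, and the number that fell was 1 after thinning to the smallest library. ALDH1A3, an enzyme that makes retinoic acid, fell from 34.8, 34.7 and 35.3 CPM to 8.66, 4.33 and 3.25 CPM (−2.61 ± 0.20).

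RARB is the textbook case of a receptor gene switched on by its own ligand. It had 0.478, 0.878 and 0.384 CPM with DOX and 3.79, 5.30 and 5.31 CPM in the combined libraries, every combined library being above every DOX library. The log2 change was 2.80 ± 0.35 (adjusted p = 4.44e-06 by edgeR's quasi-likelihood test). Without doxycycline the untreated libraries held 0.580, 1.11 and 1.33 CPM and those with ATRA 1.78, 1.49 and 1.64 CPM, a log2 change of 0.65 ± 0.34. The difference between both changes, 2.15 ± 0.50, was not called (adjusted p = 0.0749 by edgeR's quasi-likelihood test). The DOX libraries together held 23 RARB counts, and after thinning to the smallest library the gene did not pass the filter.

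The RARB promoter is printed because it holds the classical element for these receptors, a DR5. This was searched on both strands as a direct repeat of half-sites with 5 bases between them, the half-site being AGGTCA or the same letters with G as the first base, T as the third base, or both. Promoters are RefSeq sequences of GRCh38.p14, from 250 bases before to 50 after the start of the gene, and 13 of the 21 tested retinoid list members matched one by symbol. Of these 1, RARB, holds a DR5. Among all 27305 promoters 22 hold one (0.0806%), and among the 10648 tested genes with a promoter 6 (0.0563%). Among the 1246 with a promoter that rose it was 2 (0.161%), and among the 913 that fell 0. The other gene that rose is BATF2, a partner of AP-1 factors, printed after this was seen. It had 0, 0.0549 and 0 CPM with DOX and 2.83, 2.89 and 2.82 CPM in the combined libraries. With 1 count in the DOX group and 109 in the combined group, the ratio was 94.98 (exact 95% counting interval 16.7 to 3785). The RARB element begins 53 bases and the BATF2 element 29 bases before the start used. That start is the one in the RefSeq table, and for both genes it lies inside the span of the GENCODE gene model, away from its outer end. RARB is shown on the plus strand of chr3:25428013-25428312 and BATF2 on the minus strand of chr11:64990228-64990527, with the half-sites in capitals.
RARB: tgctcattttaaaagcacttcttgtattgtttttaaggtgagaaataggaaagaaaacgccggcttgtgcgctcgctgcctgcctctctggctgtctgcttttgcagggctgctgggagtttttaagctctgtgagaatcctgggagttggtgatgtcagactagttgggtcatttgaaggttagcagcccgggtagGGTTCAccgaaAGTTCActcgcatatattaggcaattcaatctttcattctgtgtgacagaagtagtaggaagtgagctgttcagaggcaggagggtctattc
BATF2: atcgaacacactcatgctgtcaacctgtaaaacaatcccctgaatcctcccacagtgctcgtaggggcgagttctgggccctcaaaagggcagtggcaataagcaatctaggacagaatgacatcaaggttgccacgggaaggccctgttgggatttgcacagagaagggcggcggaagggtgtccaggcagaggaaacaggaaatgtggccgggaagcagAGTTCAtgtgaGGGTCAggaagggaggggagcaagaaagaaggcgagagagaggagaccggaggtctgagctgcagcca

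Several genes went from next to no counts to clear expression. PTGES, the inducible synthase of prostaglandin E2 (chromosome 9, positions 129738331 to 129753047 of GRCh38), had 0, 0.110 and 0 CPM with DOX and 115, 188 and 180.0 CPM in the combined libraries. That is 2 against 5925 counts, a ratio of 2581 (exact 95% counting interval 714 to 21320.2). In the ATRA libraries without doxycycline PTGES held 54.7, 55.6 and 53.5 CPM. All 3 combined libraries were above all 3 of those, which was not tested. The difference between the responses had the other sign, −1.22 ± 1.34, and was not called (adjusted p = 0.785 by edgeR's quasi-likelihood test). It rests on 2 counts in the DOX group and 0 in the untreated group. NGFR, a neurotrophin receptor, had no count with DOX and 2.10, 2.73 and 3.58 CPM in the combined group, at least 29.6-fold higher against a floor of 3 counts over the DOX group. SIGLEC11, a sialic acid receptor with a near-identical relative, had no count either and was at least 26.1-fold higher. MLXIPL, the gene of the sugar-sensing factor ChREBP, had 1 count against 317, a ratio of 276 (49.2 to 10944). The ratio of CLEC17A, a lectin gene, was 57.1 (15.5 to 476). CCL2, a monocyte chemokine, had 1.26, 8.51 and 7.05 CPM in the combined libraries and 1 count in the DOX group, and replicate 1 was again the lowest. THBS1, encoding thrombospondin 1, rose from 1.05 ± 0.682 to 47.1 ± 1.64 CPM (5.87 ± 0.24, and 5.08 to 6.72 when a DOX library was left out), and RHBDL3, a rhomboid-family gene, rose by 6.55 ± 0.28. These counting intervals and floors cover counting error only.

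**Figure D2:**
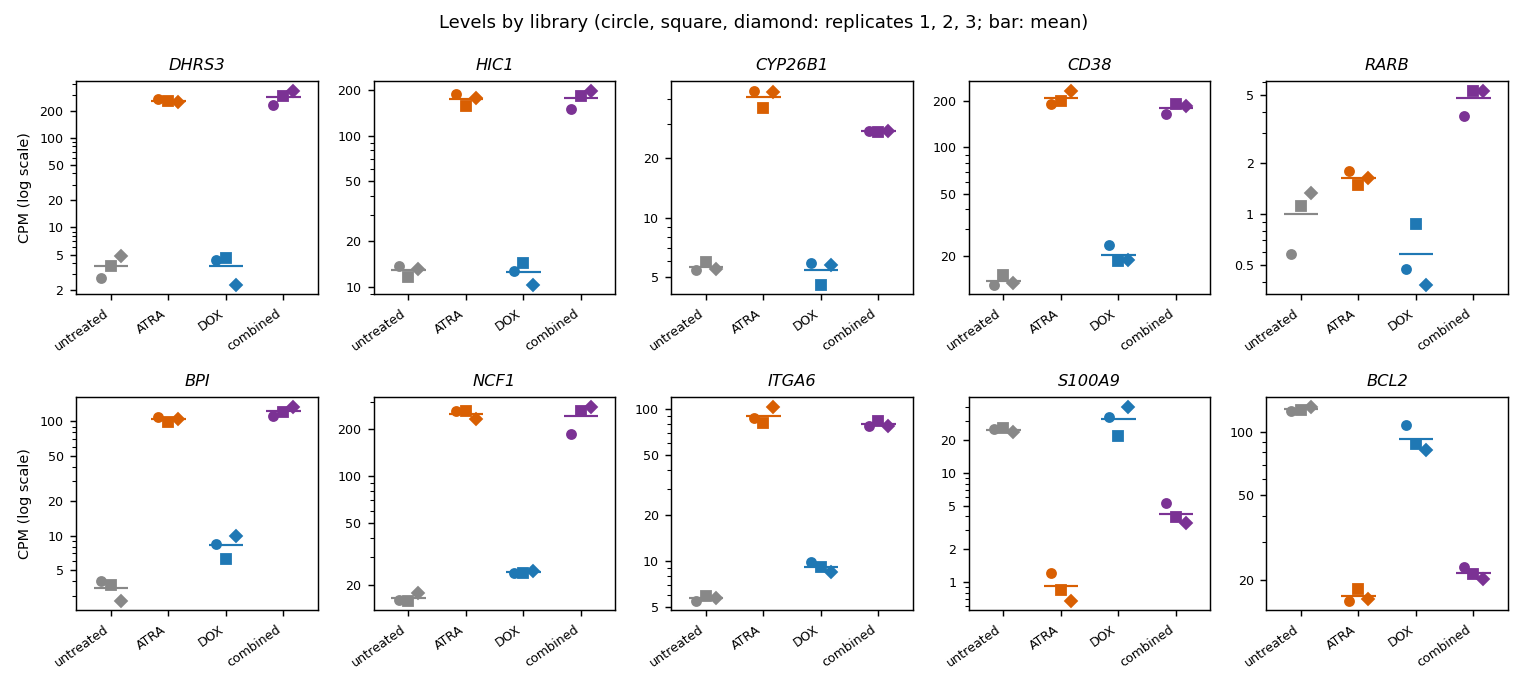
Levels in CPM on a log axis of 10 genes in the 4 groups of 3 libraries. Circles, squares and diamonds are replicates 1, 2 and 3 and bars are means. The combined libraries lie apart from the DOX libraries in every panel, upward in 8 genes and downward in S100A9 and BCL2. For DHRS3 and S100A9 the naming rule required this. The other genes, apart from NCF1, were named as list members by small adjusted p in this comparison, which favours such separation. RARB lies at 3.79, 5.30 and 5.31 CPM when ATRA was given with DOX and at 1.78, 1.49 and 1.64 CPM when it was given alone.

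Among the decreases, the calprotectin subunits S100A8 and S100A9, abundant in mature neutrophils and monocytes, both fell. S100A8 had 23.2, 17.5 and 27.3 CPM with DOX and 3.19, 1.93 and 1.41 CPM in the combined group (−3.24 ± 0.24). S100A9 went from 32.5, 21.8 and 40.7 CPM to 5.29, 3.93 and 3.47 CPM (−2.79 ± 0.20). CSRP3, which encodes a LIM protein of muscle, had 10.7, 5.65 and 11.1 CPM against 0.782, 0.562 and 0.108 CPM (−3.99 ± 0.37). In all 3 the groups did not overlap, which the rule for the largest decreases required. RGS18, a regulator of G-protein signalling in blood cells, fell (−3.44 ± 0.40, and −4.38 without combined replicate 1), as did CYP2W1, an orphan cytochrome (−3.20 ± 0.40), and GPC3, a glypican (−3.04 ± 0.46). TRAC, the constant part of the T-cell receptor alpha chain, fell (−3.00 ± 0.44), and the change was −4.54 after thinning to the smallest library. In bulk RNA, fewer cells that express a gene and less of its RNA per cell cannot be told apart, here and below.

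Maturation genes moved in both directions. Of 21 tested genes of mature myeloid cells (34 listed) 11 rose and 6 fell, S100A8 and S100A9 among the latter. TYROBP, a signalling adaptor of myeloid receptors, rose by 1.48 ± 0.12, ITGAM, which encodes CD11b, by 1.32 ± 0.12, and CSF1R, the receptor of macrophage colony-stimulating factor, by 1.82 ± 0.18. FCGR1A, a high-affinity IgG receptor, fell from 39.2, 44.3 and 51.4 CPM to 26.3, 23.4 and 16.9 CPM (−0.97 ± 0.13). LYZ, encoding lysozyme, had 216, 226 and 227 CPM with DOX and 144, 70.6 and 67.9 CPM in the combined group. Combined replicate 1 was the nearest to DOX, and the change was −1.23 ± 0.18 with it and −1.67 ± 0.10 without it.

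Of 6 tested NADPH oxidase genes 1 rose, NCF1, which encodes the p47phox organizer of the enzyme. It had 24.0, 23.7 and 24.6 CPM with DOX and 186, 262 and 279 CPM in the combined libraries (3.33 ± 0.13), and it has near-identical pseudogenes with which reads may be shared. NCF4, another cytosolic subunit, had 0.09 ± 0.10 and the membrane subunit CYBA 0.22 ± 0.13, neither of them called. CYBC1 had 0.15 ± 0.09 and RAC2 −0.17 ± 0.09, also without a call, and CYBB did not pass the filter on low counts. The oxidase genes that rose numbered 2 without DOX replicate 3. Without doxycycline 5 of the 6 rose, and none of the differences between both responses was called.

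Among 15 azurophil granule genes 5 rose and 5 fell. BPI, a protein that kills gram-negative bacteria, had 8.52, 6.26 and 9.98 CPM with DOX and 112, 119.9 and 134 CPM in the combined libraries (4.002 ± 0.14). SRGN, the core proteoglycan of granules, went from 2173, 2295 and 2685 CPM to 6379, 7556 and 7180.4 CPM (1.56 ± 0.14). SERPINB1, an inhibitor of neutrophil elastase, rose by 1.23 ± 0.09. The granule protease cathepsin G went the other way, CTSG having 1926, 2189 and 2452 CPM with DOX and 969.7, 497 and 565 CPM in the combined group (−1.69 ± 0.17). CST7, a cystatin, had 38.3, 33.2 and 44.2 CPM against 17.6, 7.79 and 8.57 CPM (−1.68 ± 0.20). In CTSG and CST7 combined replicate 1 was the nearest to DOX, and the changes without it were −2.02 and −2.18. The granule genes that rose numbered 3 without DOX replicate 2.

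Of 28 tested myeloid transcription factors 11 rose and 3 fell. IRF8, a factor of monocyte and dendritic cell fate, rose from 441 ± 16.99 to 634 ± 35.8 CPM (0.52 ± 0.09) and RUNX2, a runt-domain factor, by 0.87 ± 0.12. BCL11A, a repressor best known in B cells and erythroid cells, fell from 72.4, 70.7 and 68.7 CPM to 27.7, 22.6 and 21.9 CPM (−1.55 ± 0.11). MYC, the growth regulator, fell from 536, 647 and 553 CPM to 386, 348 and 369.7 CPM (−0.66 ± 0.10). KLF2, a factor of quiescent leukocytes, had 5.57, 5.44 and 4.99 CPM with DOX and 7.52, 24.6 and 21.9 CPM in the combined group, lowest in replicate 1 (1.70 ± 0.30, and 2.11 ± 0.17 without that library). On the list of HOX and stem cell genes 3 rose and 4 fell of 23 tested. HMGA2, a chromatin protein of immature cells, fell (−1.50 ± 0.22), as did PBX3, a cofactor of HOX proteins (−0.55 ± 0.08). The number that rose was 1 after thinning to the smallest library, with only these 6 libraries in the fit or without DOX replicate 3 or combined replicate 2 and 0 without DOX replicate 2, and the number that fell was 2 without combined replicate 1.

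Interferon-stimulated genes rose together. Of 50 tested (52 listed) 40 rose and 1 fell, with a median log2 change of 0.95, and without doxycycline 40 rose. GBP4, a guanylate-binding protein, had 0.159, 0.0549 and 0.384 CPM with DOX and 9.98, 13.3 and 12.4 CPM in the combined libraries (6.50 ± 0.40, and 5.82 without DOX replicate 2). IFI6, an antiviral mitochondrial protein, went from 1.91, 2.09 and 1.92 CPM to 21.8, 14.6 and 19.95 CPM (3.23 ± 0.24). BST2, the virus tether tetherin, had 63.2, 79.9 and 68.0 CPM against 153, 152 and 161 CPM (1.13 ± 0.09). In none of the 3 did the groups overlap, which for GBP4 the rule for the largest increases required. IFI6 and BST2 were named by adjusted p in this comparison, which favours such separation. GBP5, of the same family as GBP4, rose by 3.87 ± 0.27, SAMD9L, an antiviral factor, by 1.76 ± 0.16, and the ISG15-conjugating enzyme UBE2L6 by 1.87 ± 0.17. IFITM2, the member that fell, had 30.6, 40.9 and 35.3 CPM against 25.9, 22.3 and 32.0 CPM, with overlap between the groups (−0.43 ± 0.15, adjusted p = 0.0432 by edgeR's quasi-likelihood test). Its call was lost with scaling by library totals, after thinning to the smallest library, with only these 6 libraries in the fit or without DOX replicate 2 or 3 or combined replicate 1 or 2.

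The promoters of GBP4 and IFI6 are printed because these genes were the first by adjusted p among the interferon genes that rose and hold the core of the element bound by interferon factors, GAAA, any 2 bases and GAAA again. It was searched on both strands. Of 31 interferon genes that rose and matched a promoter, 19 hold it (61.3%). The share was 61.5% of all 39 tested interferon genes with a promoter, 3.07% of all tested genes and 3.65% of all promoters. It was 5.14% of genes that rose and 2.63% of genes that fell. GBP4 is shown on the minus strand of chr1:89198893-89199192, and its motif, on the opposite strand, begins 4 bases before the start used and runs across it. IFI6 is on the minus strand of chr1:27672143-27672442, with 3 copies, the first 156 bases before the start. The motifs are in capitals.
GBP4: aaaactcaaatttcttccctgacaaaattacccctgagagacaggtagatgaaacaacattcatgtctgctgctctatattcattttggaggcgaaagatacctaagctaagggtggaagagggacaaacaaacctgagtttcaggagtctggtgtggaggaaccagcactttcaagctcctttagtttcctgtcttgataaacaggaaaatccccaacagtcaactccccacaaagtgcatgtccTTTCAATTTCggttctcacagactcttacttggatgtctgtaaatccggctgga
IFI6: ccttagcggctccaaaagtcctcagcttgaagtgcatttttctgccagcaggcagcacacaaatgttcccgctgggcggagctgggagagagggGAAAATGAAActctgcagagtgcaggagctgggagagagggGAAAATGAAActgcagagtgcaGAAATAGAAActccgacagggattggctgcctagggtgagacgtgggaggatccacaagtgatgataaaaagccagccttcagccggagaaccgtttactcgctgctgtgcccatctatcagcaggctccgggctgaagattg

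Genes of antigen presentation rose in both classes. For class I, 13 of 22 tested genes rose and 1 fell, with a median of 0.39. PSMB9, an immunoproteasome subunit, had 51.3, 49.7 and 52.99 CPM with DOX and 107, 100.2 and 124 CPM in the combined group (1.11 ± 0.10). The peptide transporter TAP1 rose by 0.72 ± 0.09. CALR, a chaperone, was the member that fell (−0.37 ± 0.10), a call lost with only these 6 libraries in the fit or without DOX replicate 2 or 3 or combined replicate 2. For class II, 8 of 15 tested genes (19 listed) rose and none fell, with a median of 0.43 against 1.49 without doxycycline. The difference between both responses was called as negative for 4 of the 15, where 0.224% of all genes tested had such a call. HLA-DRA, HLA-DQB1 and CD74 are among them and are given below. The number that rose was 5 after thinning to the smallest library or without combined replicate 1 or 3 and 4 with only these 6 libraries in the fit. HLA-DPA1, a class II alpha chain, had 0.159, 0.439 and 0 CPM with DOX and 2.71, 1.28 and 1.19 CPM in the combined libraries (2.58 ± 0.52). HLA-DRB1 had 0, 0.769 and 0 CPM against 6.01, 3.69 and 4.55 CPM (3.53 ± 0.44). Its DOX counts were in replicate 2 alone, and the fitted change was 8.83 without that library, a value that depends on the prior count since no DOX count is left. HLA genes have close relatives among which reads may be divided.

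Chemokine receptors, integrins and costimulatory molecules also moved mostly upward. Of 18 tested chemokines and receptors (34 listed) 10 rose and 1 fell. CCR1, a receptor for inflammatory chemokines, had 8.60, 10.9 and 8.45 CPM with DOX and 68.2, 58.4 and 64.5 CPM in the combined group (2.72 ± 0.13). CX3CR1, the fractalkine receptor, rose by 0.77 ± 0.13. CXCR4, which retains cells in bone marrow, fell from 73.0, 81.3 and 83.3 CPM to 36.3, 19.9 and 21.4 CPM (−1.58 ± 0.16). The number of this list that fell was 2 without combined replicate 1. Of 19 integrin and adhesion genes 12 rose and 1 fell. ITGA6, integrin alpha 6, had 9.95, 9.11 and 8.45 CPM against 77.7, 83.2 and 77.9 CPM (3.09 ± 0.11), ITGB7, integrin beta 7, rose by 2.90 ± 0.14, and CD44, the hyaluronan receptor, fell (−0.80 ± 0.08). Of 21 costimulatory and checkpoint genes 10 rose and 1 fell, and the number that rose was 6 after thinning to the smallest library. VSIR, the checkpoint VISTA, went from 42.6, 40.1 and 46.1 CPM to 179, 200.5 and 213 CPM (2.22 ± 0.10). CD47, the member that fell (−0.27 ± 0.09), lost its call with scaling by library totals, in DESeq2, with no filter on low counts, with the mitochondrial ribosomal RNA share as a term, with only these 6 libraries in the fit or without DOX replicate 2 or 3 or combined replicate 1, 2 or 3.

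Called inflammatory and eicosanoid genes mostly rose, where 10.7% of all genes tested rose and 8.24% fell. Of 26 NF-kB and inflammatory genes 6 rose and 1 fell. ICAM1, an adhesion molecule, rose by 1.060 ± 0.11. IL1RN, the interleukin-1 receptor antagonist, fell from 7.80, 11.6 and 13.1 CPM to 3.85, 2.89 and 3.04 CPM (−1.65 ± 0.21). The number that fell was 2 with DESeq2 size factors, with the mitochondrial ribosomal RNA share as a term or without DOX replicate 2 or combined replicate 1. Without doxycycline 15 of the list rose, and no difference between the responses was called for any member. Of 18 prostaglandin and leukotriene genes 5 rose, PTGES among them, and 1 fell. ALOX5AP, the partner of 5-lipoxygenase, rose by 1.18 ± 0.17, PTGS1, cyclooxygenase 1, by 0.96 ± 0.16, and LTA4H, an enzyme of leukotriene B4 synthesis, fell (−0.47 ± 0.10). Decreases in the list numbered 2 without DOX replicate 1.

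Survival genes of both roles moved. BCL2, the anti-apoptotic protein that venetoclax targets, had 108, 87.8 and 81.8 CPM with DOX and 22.8, 21.4 and 20.2 CPM in the combined libraries (−2.12 ± 0.10). MCL1, its anti-apoptotic relative, rose from 265, 260.1 and 259 CPM to 360.4, 436 and 436 CPM (0.65 ± 0.09). All 3 combined libraries were below all 3 DOX libraries for BCL2 and above them for MCL1. The pore-forming effector BAK1 rose by 0.67 ± 0.08, while the death receptor FAS fell (−0.79 ± 0.12). Of 30 tested apoptosis genes 10 rose and 2 fell. Among 26 p53 target genes 7 rose and 3 fell, and the number that rose was 4 after thinning to the smallest library. TP53I3, a quinone oxidoreductase, had 7.16, 6.70 and 4.61 CPM with DOX and 59.5, 57.2 and 68.0 CPM in the combined group (3.21 ± 0.12). GDF15, a stress cytokine, had 1.27, 0.878 and 0.384 CPM against 25.5, 10.4 and 12.5 CPM, highest in combined replicate 1 (4.04 ± 0.35, and 4.71 after thinning to the smallest library). SESN1, a sestrin, fell (−0.47 ± 0.10).

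With all libraries in the fit, the called genes of DNA replication, mitosis and ribosome biogenesis all fell, and their number depended on single libraries. Of 40 DNA replication genes 5 fell and none rose, with a median of −0.19, where 8.24% of all genes tested fell. The number that fell was 16 without DOX replicate 1 and 3 with no filter on low counts or without combined replicate 1, and the number that rose was 1 with scaling by library totals, with the mitochondrial ribosomal RNA share as a term or without DOX replicate 2 or 3. E2F1, an S-phase transcription factor, fell from 32.2, 41.7 and 40.3 CPM to 25.4, 26.9 and 25.3 CPM (−0.55 ± 0.11). The licensing factor CDT1 had 143, 189 and 162 CPM against 108, 121 and 133 CPM (−0.46 ± 0.10). Of 36 mitosis genes 7 fell and none rose, with a median of −0.13, and the number that fell was 12 without DOX replicate 1 and 4 without DOX replicate 2. CCNB2, cyclin B2, fell (−0.47 ± 0.10), as did the phosphatase gene CDC25B (−0.44 ± 0.10). Of 34 ribosome biogenesis genes 8 fell, among them FBL, the methyltransferase of ribosomal RNA (−0.46 ± 0.10). That number was 13 without DOX replicate 1, 5 with only these 6 libraries in the fit or without combined replicate 3 and 3 without DOX replicate 2 or combined replicate 1 or 2, and the number that rose was 1 without DOX replicate 1. The share of mitochondrial ribosomal RNA was 2.18, 1.02 and 1.30% in the DOX libraries and 1.98, 2.02 and 1.23% in the combined libraries, DOX replicate 1 being the highest. With that share as a term in the fit, 5 DNA replication, 6 mitosis and 7 ribosome biogenesis genes fell. Without doxycycline 19 DNA replication, 12 mitosis and 10 ribosome biogenesis genes fell, and 1 DNA replication gene rose. No difference between the responses was called for any gene of these lists.

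Mitochondrial genes gave almost no calls with DOX. Of 45 nuclear genes of the respiratory chain 1 fell and none rose, with a median of −0.08. Without doxycycline 8 of them rose, and no difference between the responses was called for any of them. The number that fell was 12 without DOX replicate 1, 3 in DESeq2, with no filter on low counts or after thinning to the smallest library, 2 without combined replicate 3 and 0 with only these 6 libraries in the fit or without DOX replicate 2 or combined replicate 1 or 2. Of 13 mitochondrially encoded genes none was called in edgeR, with 2 at an unadjusted p under 0.05, and the number that fell was 6 without combined replicate 1, 4 with the mitochondrial ribosomal RNA share as a term and 1 in DESeq2, with no filter on low counts or without DOX replicate 1, and the number that rose 1 without DOX replicate 2.

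Of 18 tested LXR and lipid genes 10 rose, MLXIPL among them, and 1 fell, FABP5, a fatty acid binding protein. The number that fell was 0 after thinning to the smallest library or without DOX replicate 2 or combined replicate 1. ABCA1, the cholesterol exporter, had 3.18, 3.29 and 3.46 CPM with DOX and 6.01, 16.4 and 12.9 CPM in the combined libraries, lowest in replicate 1 (1.82 ± 0.28). PLTP, a phospholipid transfer protein, rose by 0.94 ± 0.15. Of 24 fatty acid oxidation genes 6 rose and 2 fell, and the number that rose was 3 after thinning to the smallest library. DECR1, a reductase that handles unsaturated fatty acids, rose by 0.61 ± 0.08, while CPT1A, which commits fatty acids to mitochondria, fell (−0.37 ± 0.08). Of 14 iron and heme genes 6 rose and none fell, including ALAS1, the first enzyme of heme synthesis (0.68 ± 0.09), and FTL, the ferritin light chain, from 1479 ± 196 to 2116 ± 167 CPM (0.52 ± 0.11). Integrated stress response genes rose at 4 and fell at 4 of 29 tested. WARS1, a tRNA synthetase that interferon also induces, rose by 1.09 ± 0.08. SLC7A11, the cystine transporter, fell from 50.9, 28.9 and 45.7 CPM to 19.1, 16.7 and 11.4 CPM (−1.35 ± 0.18). Without doxycycline 16 of this list fell, and no difference between the responses was called for any member. Of 18 tested replication histone genes (24 listed) 3 rose and none fell, with a median of 0.34, while without doxycycline 12 fell and the median was −0.87. None of their differences between responses was called, and the number that rose was 1 with the mitochondrial ribosomal RNA share as a term or without DOX replicate 2 or 3 or combined replicate 1. Decreases among the histone genes numbered 2 with the mitochondrial ribosomal RNA share as a term and 1 without combined replicate 2. H2BC12, a histone H2B gene, rose from 24.6, 19.0 and 18.8 CPM to 35.5, 34.0 and 36.3 CPM (0.74 ± 0.13). Among 31 tested genes of sterol and fatty acid synthesis 4 rose and 2 fell, SQLE, squalene epoxidase, rising by 0.64 ± 0.09. FDPS, an enzyme of sterol synthesis, fell (−0.29 ± 0.08), a call lost with no filter on low counts, after thinning to the smallest library or without DOX replicate 2 or 3 or combined replicate 1 or 2. The number of the list that fell was 1 with scaling by library totals, with only these 6 libraries in the fit or without DOX replicate 1 or 2 or combined replicate 1 or 3 and 0 with no filter on low counts, after thinning to the smallest library or without DOX replicate 3 or combined replicate 2. Of 14 genes of nucleotide and nucleoside drug metabolism 2 rose and 1 fell, and NT5C2, a nucleotidase, rose by 0.69 ± 0.08. The gene that fell was DUT, a dUTPase (−0.36 ± 0.10), and the number was 2 without DOX replicate 1 and 0 without DOX replicate 2 or combined replicate 1. Of 14 genes of cyclin D and its kinases and inhibitors 4 rose and 2 fell. CCND1, CDKN2D, CDKN1A and CDKN1C rose by 0.75 ± 0.18, 0.39 ± 0.12, 0.27 ± 0.09 and 1.38 ± 0.46, and the kinases CDK4 and CDK2 fell (−0.29 ± 0.09 and −0.29 ± 0.10). Each of these calls was lost under some of the alternative settings. The count of increases was 2 with no filter on low counts or without combined replicate 3, 1 with only these 6 libraries in the fit or without combined replicate 2 and 0 after thinning to the smallest library or without DOX replicate 2. The count of decreases was 1 with scaling by library totals, after thinning to the smallest library or without combined replicate 2 or 3 and 0 with no filter on low counts, with only these 6 libraries in the fit or without DOX replicate 3 or combined replicate 1. Of 21 endoplasmic reticulum folding genes 4 rose and 2 fell, CALR and MANF, and the count of decreases was 1 with scaling by library totals, with no filter on low counts, after thinning to the smallest library or without combined replicate 1 or 3 and 0 with only these 6 libraries in the fit or without DOX replicate 2 or 3 or combined replicate 2. EDEM1, which marks misfolded proteins for disposal, rose by 1.10 ± 0.10, and XBP1, a regulator of secretory load, by 0.49 ± 0.09.

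**Figure D3:**
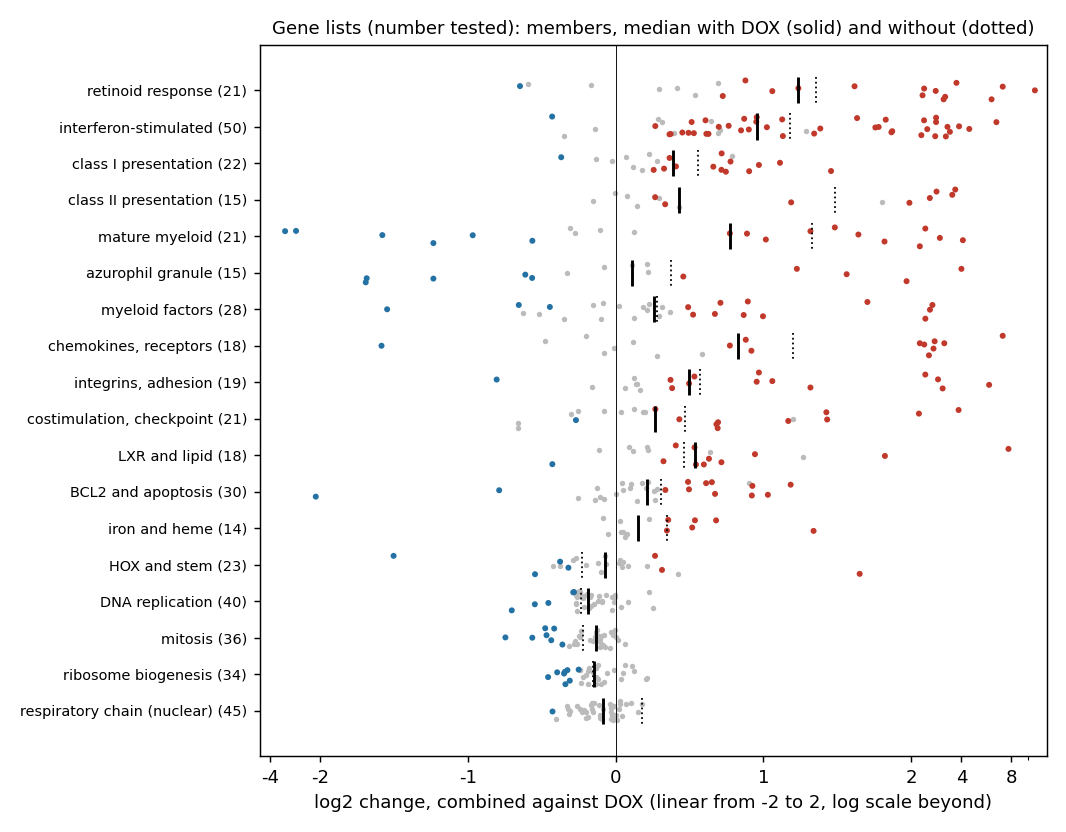
Log2 changes of combined against DOX for the tested members of 18 gene lists, linear between −2 and 2 and on a log scale beyond. Red points rose, blue points fell and grey points were not called, solid bars are medians with DOX and dotted bars medians without it. The retinoid and interferon lists lie to the right, with medians of 1.24 and 0.95, and the class II list has its median at 0.43 against 1.49 without DOX.

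ATRA was also given without doxycycline, in libraries that share none with combined against DOX. There 4652 genes were called (28.9%). Of the genes called with DOX, 2250 were also called in the same direction without it, which is 73.7% of those called with DOX and 48.4% of those called without. Another 800 were called with DOX alone and 2398 without DOX alone. Of the 800, 3 passed a test of the difference itself, and of the 2398, 11 did. Over the 5905 genes that passed the test of the ATRA effect averaged over both settings, the slope of the changes with DOX on those without was 0.815, by total least squares through the origin. The slope was 0.832 among the genes that rose and 0.760 among those that fell, and 0.897 when DOX replicate 1 was left out. It is a description across genes, which are not replicates, and was not tested.

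**Figure D4:**
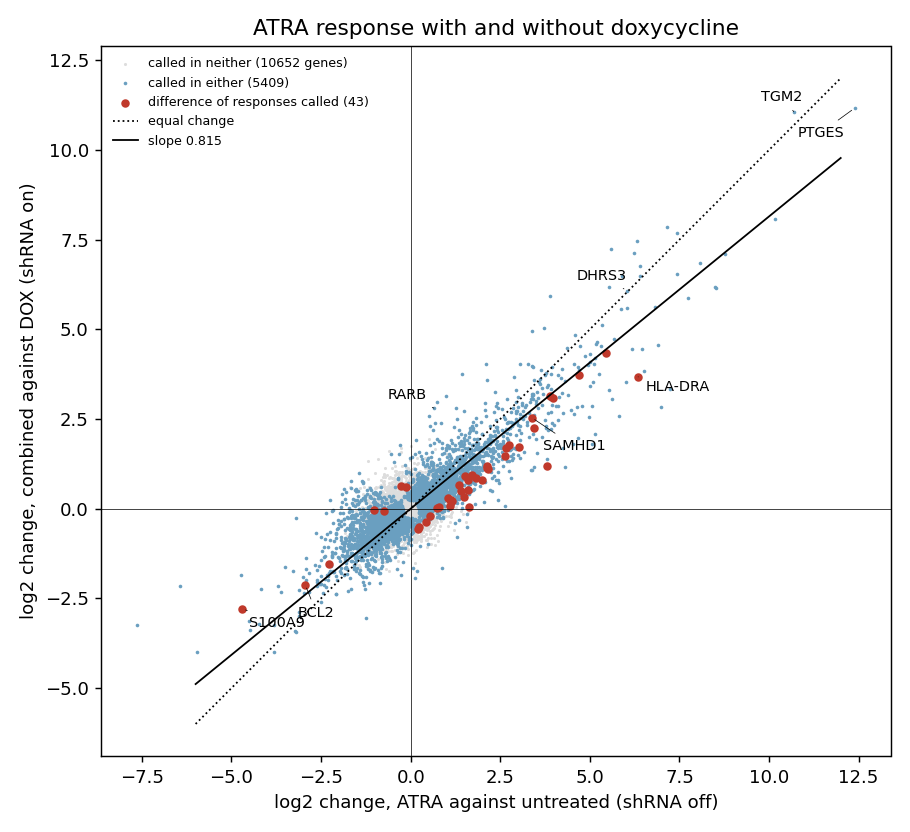
Log2 change of each of the 16104 genes tested, combined against DOX (vertical) and ATRA against untreated (horizontal). The solid line has the slope of 0.815, the dotted line marks equal change, and red points are the 43 genes whose responses differed. Of these, 32 had a smaller positive change with DOX, HLA-DRA among them at 3.68 ± 0.29 (5.38 without DOX replicate 2) against 6.35 ± 0.26.

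The interaction, the response with DOX minus the response without, called 43 genes (0.267%), 7 with a positive difference (0.0435%) and 36 with a negative one (0.224%). At an unadjusted p under 0.05 there were 1735. Of the 43, 32 had a smaller positive change with DOX, 5 a smaller negative change, and 6 had changes of opposite sign. The count depended on single libraries. It was 747 without DOX replicate 1, 414 of them positive, and 129 without combined replicate 1. It was 45 and 31 without DOX replicates 2 and 3, 21 and 46 without combined replicates 2 and 3. Without untreated replicates 1, 2 and 3 in turn it was 11, 16 and 16, and without ATRA replicates 1, 2 and 3 in turn 23, 31 and 10.

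Among the named genes of the interaction, SAMHD1, CD74, HLA-DQB1, HERPUD1 and CHCHD7 kept a called difference under every alternative run. SAMHD1, the dNTPase that limits cytarabine, had 121, 129 and 129.8 CPM with DOX and 710.5, 703 and 792 CPM in the combined group. Without doxycycline it had 109.9, 102 and 112 CPM untreated and 1139.8, 1054 and 1179 CPM with ATRA. It thus rose in both settings, and less with DOX (difference −0.84 ± 0.12, adjusted p = 0.00386 by edgeR's quasi-likelihood test). CD74, the invariant chain of class II, had 76.7, 107 and 87.9 CPM and 133, 102 and 109 CPM with DOX, where the groups overlapped, against 73.7, 80.5 and 78.01 CPM and 234, 205 and 210.4 CPM without it (−1.15 ± 0.16). HLA-DQB1, a class II beta chain, had 1.99, 4.12 and 1.92 CPM and 6.19, 6.58 and 8.02 CPM with DOX, against 0.773, 1.11 and 1.38 CPM and 16.9, 16.7 and 14.7 CPM without it (−2.63 ± 0.36). HLA-DQB1 was highest in DOX replicate 2 among the DOX libraries, and after thinning to the smallest library its difference was −4.15. HERPUD1, which serves the disposal of misfolded proteins, had 46.6, 47.1 and 44.9 CPM and 92.5, 84.1 and 89.9 CPM with DOX, against 44.7, 46.9 and 44.7 CPM and 142, 144 and 160.0 CPM without (−0.77 ± 0.11). In CHCHD7, a mitochondrial protein gene, the direction itself differed. It fell from 485, 577 and 542 CPM to 376, 368 and 377 CPM with DOX and went from 317, 304 and 291 CPM to 373, 378 and 324 CPM without it, where the change was 0.24 ± 0.09 (adjusted p = 0.0472 by edgeR's quasi-likelihood test). The difference was −0.75 ± 0.12. CHCHD7 means with ATRA were close, 374 CPM in the combined group and 358 CPM with ATRA alone. Without ATRA they lay further apart, 534 CPM with DOX and 304 CPM untreated. OLMALINC, a long noncoding RNA, held 43.3, 39.9 and 49.5 CPM and 37.8, 42.5 and 47.2 CPM with DOX and 42.1, 40.5 and 44.8 CPM and 22.1, 18.6 and 21.8 CPM without (0.99 ± 0.15), a call lost after thinning to the smallest library. PTAFR, the receptor of platelet-activating factor, had 15.1, 13.6 and 14.6 CPM and 20.4, 12.1 and 11.5 CPM with DOX against 6.09, 6.17 and 6.80 CPM and 18.2, 20.7 and 20.6 CPM without (−1.57 ± 0.25), lost after thinning to the smallest library.

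**Figure D5:**
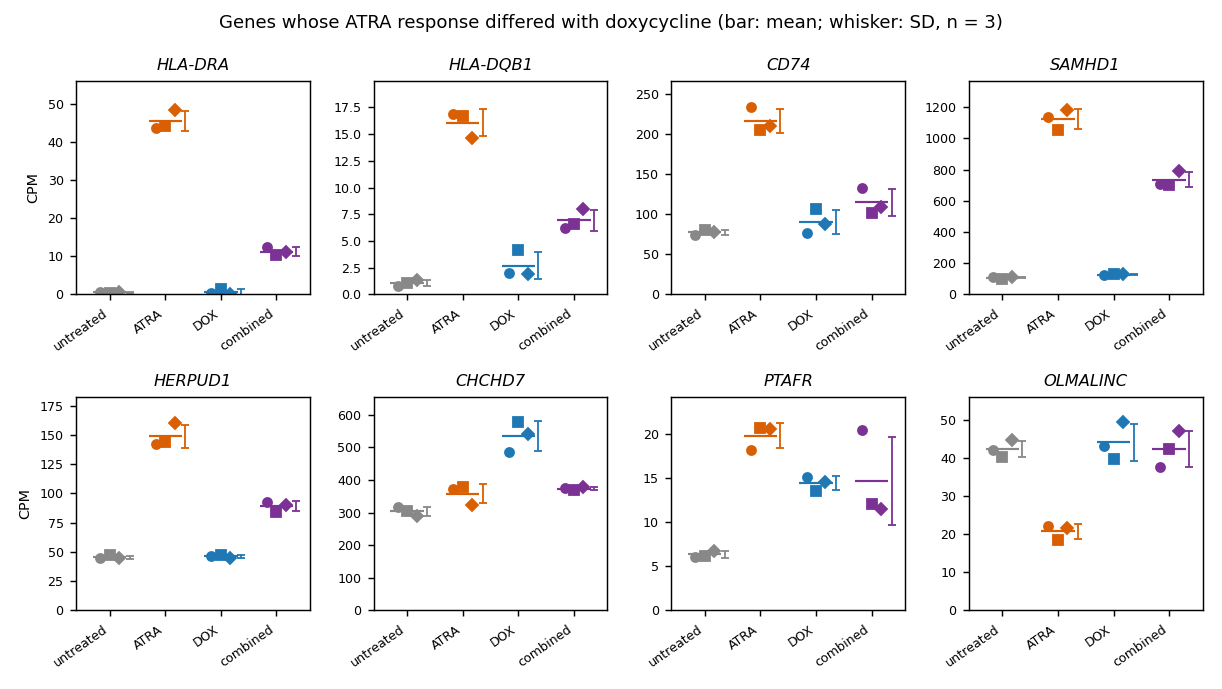
Levels in CPM (linear axis from 0) of 8 genes in the 4 groups of 3 libraries. Circles, squares and diamonds are replicates 1, 2 and 3, bars are means and whiskers SD. SAMHD1 reaches 710.5, 703 and 792 CPM with DOX and ATRA and 1139.8, 1054 and 1179 CPM with ATRA alone. Its means without ATRA were 127 CPM with DOX and 108 CPM untreated.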

How the data were processed

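The labels place 12 libraries in 4 groups of 3 biological replicates, and all comparisons use those groups. The authors deposited whole-number counts per gene, made with FastQC, STAR and HTSeq on GRCh38, per the submitters' processing notes. Versions, annotation and strand setting are not given in the sources used here, so reads from overlapping genes or from both strands of a locus may have been mixed. Of 61487 gene identifiers 61369 had a symbol. GENCODE gave gene coordinates and RefSeq the promoters.

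From the counts, filterByExpr kept 16104 genes, TMM scaled the libraries, and edgeR 4.0.16 in R 4.3.3 fitted 1 quasi-likelihood model of the 4 group means, which gave every contrast (Benjamini-Hochberg adjusted p under 0.05). Standard errors were obtained by dividing the log2 change by the square root of F. Where a group had no count, the fold is a bound that assumes 3 counts in that group. With 1 to 3 counts it is a ratio with an exact 95% counting interval. Totals of 2685984 to 19358619 counts set the precision.

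Named genes were NRIP1, the 12 largest increases and decreases among called genes with at least 2 CPM and no overlap, up to 6 members of each of 36 lists by adjusted p, list members called in the minority direction, the 10 largest called differences each way in the interaction, and genes called in opposite directions. A few genes that the rule names are not reported here. Members, lists and rules were chosen with earlier results of these data known. Alternatives were DESeq2 1.42.0, its size factors, library totals, no filter on low counts, a replicate block, binomial thinning to the smallest library, the mitochondrial ribosomal RNA share as a term, only the 6 libraries, and leaving out each library.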

Additional observations from a re-analysis of the deposited data

Results flagged for a closer look

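The responses to ATRA with and without doxycycline were compared gene by gene with the interaction of edgeR's quasi-likelihood fit, and 24 called genes are given here on the log2 scale, with DOX minus without. They are the 10 largest negative differences, all 7 positive ones, and called genes that the naming rule holds as list members or as called in opposite directions. Among antigen presentation genes the difference was −2.67 ± 0.52 for HLA-DRA, −2.63 ± 0.36 for HLA-DQB1 and −1.15 ± 0.16 for CD74. Without DOX replicate 2, in which most HLA-DRA counts of the DOX group lie, that of HLA-DRA was −0.97. Among receptors it was −1.57 ± 0.25 for PTAFR, −1.19 ± 0.22 for CCR2, −1.09 ± 0.23 for IL31RA and −1.08 ± 0.22 for IL7R. Among other surface and secreted proteins it was −1.297 ± 0.24 for FGL2, −1.16 ± 0.21 for MS4A6A, −0.89 ± 0.17 for ITGA6, −0.77 ± 0.16 for CD38 and −1.22 ± 0.24 for CHST2, a Golgi enzyme. SAMHD1 had −0.84 ± 0.12, HERPUD1 −0.77 ± 0.11 and the antiproliferative gene BTG2 −0.95 ± 0.19. RPS27L and CHCHD7, called in opposite directions with and without DOX, had −0.80 ± 0.17 and −0.75 ± 0.12. Positive differences were 1.91 ± 0.36 for S100A9, 0.82 ± 0.15 for BCL2 and 0.74 ± 0.16 for BCL11A, all of which fell less with DOX. They were 0.99 ± 0.15 for OLMALINC and 0.67 ± 0.12 for VANGL1, which changed little with DOX. They were 0.93 ± 0.17 for WNT6 and 0.75 ± 0.15 for INAVA, whose changes had opposite signs. A difference can lie in the levels with ATRA or in those without it. CCR2 had means of 108 CPM with ATRA alone and 53.5 CPM in the combined group, from 9.93 CPM untreated and 11.3 CPM with DOX. IL31RA had 111 and 116 CPM in the same 2 groups with ATRA, from 2.43 CPM untreated and 5.41 CPM with DOX. BCL11A had 23.0 and 24.1 CPM in those groups, from 112 CPM untreated and 70.6 CPM with DOX.

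The calls of these differences depended in part on the setting and on single libraries. With scaling by library totals the call was lost for HLA-DRA, FGL2, CHST2, IL31RA, IL7R, BTG2, ITGA6, RPS27L, CD38, BCL11A, INAVA and S100A9. After thinning to the smallest library the call held for HLA-DQB1, CD74, SAMHD1, HERPUD1 and CHCHD7 and was lost for the other genes. With the mitochondrial ribosomal RNA share as a term the call was lost for CHST2, CCR2, RPS27L, BCL11A and INAVA. Without DOX replicate 2 the call was lost for HLA-DRA, CHST2, CCR2, MS4A6A, IL31RA, RPS27L, BCL11A and INAVA. Without DOX replicate 3 the call was lost for IL31RA, RPS27L, CD38, BCL11A and INAVA. Without combined replicate 1 the call was lost for BCL11A. Without combined replicate 2 the call was lost for CHST2, CCR2, MS4A6A, IL31RA, IL7R, BTG2, RPS27L, CD38, VANGL1, BCL11A and INAVA. Without combined replicate 3 the call was lost for IL31RA, IL7R and RPS27L. Without untreated replicate 1 the call held for HLA-DQB1, PTAFR, CD74, SAMHD1, HERPUD1, CHCHD7 and OLMALINC and was lost for the other genes. Without untreated replicate 2 the call held for HLA-DQB1, PTAFR, FGL2, CCR2, MS4A6A, CD74, SAMHD1, HERPUD1, CHCHD7, BCL2 and OLMALINC and was lost for the other genes. Without untreated replicate 3 the call held for HLA-DQB1, PTAFR, CD74, IL31RA, SAMHD1, HERPUD1, CHCHD7, BCL2 and OLMALINC and was lost for the other genes. Without ATRA replicate 1 the call was lost for HLA-DRA, CHST2, IL31RA, IL7R, BTG2, RPS27L, VANGL1, BCL11A, INAVA and BCL2. Without ATRA replicate 2 the call was lost for CHST2, BTG2, RPS27L, CD38, BCL11A, INAVA and S100A9. Without ATRA replicate 3 the call held for HLA-DQB1, PTAFR, CD74, SAMHD1, HERPUD1, CHCHD7 and OLMALINC and was lost for the other genes. After such thinning the difference of HLA-DQB1 was −4.15 and that of CHST2 −0.61.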

How the results depend on the processing

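Of 201 named genes called in combined against DOX, 56 lost the call under at least 1 of 14 alternatives and none changed direction. That count of called genes was 1847 (1040 rose, 807 fell, 1701 shared) after thinning to the smallest library, where ATRA without DOX called 2645. It was 2195 to 3898 with single libraries left out. The interaction called 24 genes with library totals, 117 in DESeq2, 189 with no filter (77 positive), 18 at the smallest depth (6 positive), and 10 to 747 with single libraries left out. The slope ran from 0.793 to 0.897, the latter without DOX replicate 1. Genes without a call in combined against DOX that changed sign were OLMALINC, PTAFR and NCF4. With single libraries left out OLMALINC ran from −0.11 to 0.068, PTAFR from −0.26 to 0.20 and NCF4 from −0.019 to 0.17. OLMALINC was 0.028 without DOX replicate 3, and PTAFR was −0.023 with the mitochondrial ribosomal RNA share as a term. Fewer counts, fewer samples or more genes tested enter some of these fits, and otherwise the cause was not tested. Departures from the group means in same-numbered DOX and combined libraries correlated at 0.267, 0.0787 and 0.0632. DOX replicate 2 correlated best with combined replicate 3 (0.176), and the other pairs with different numbers were negative, down to −0.244. Departures within a group depend on each other, so these values do not settle whether the numbers pair the libraries. A replicate block gave 3052 calls in combined against DOX, 4677 without DOX and 54 in the interaction. DOX replicate 3, with 2685984 counts, limits what can be seen of genes at low levels.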
